A study of Drosophila melanogaster with 9 samples.

Results

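Midguts of adult female Drosophila melanogaster whose intestinal progenitors carried an active transformer (tra) gene were compared with midguts that lacked it. All 9 libraries of the series entered. The tra-positive side held 6 libraries, 3 titled as wild-type female controls (control) and 3 from tra mutant females with a traF transgene switched on in adult intestinal stem cells (rescue), and the tra-negative side held the 3 libraries of tra mutant females (mutant). Every group had a w1118 strain background and consisted of virgin females given as 15 days old, held at 18 °C for the first 3 days and at 29 °C, which turns transgenes on, for 10 days, with 30 midguts pooled per replicate. Genes were then kept where control and rescue lay on the same side of the mutant. This left 93 of the 10088 genes tested (0.922%), out of 114 (1.13%) that passed, whether or not the groups agreed in direction, at an adjusted p under 0.05 for the mean of control and rescue against the mutant. Among all 10088 tested genes, called or not, 5443 had control and rescue on the same side of the mutant. The direction rule set no smallest difference for either group.

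tra encodes a splicing regulator that is productive in females only and directs female splicing of doublesex and fruitless transcripts. The fly midgut is an epithelium of absorptive enterocytes and hormone-secreting enteroendocrine cells renewed by stem cells, and female and male midguts are known to differ. Enterocytes also break down foreign compounds, with cytochrome P450s and glutathione transferases as the best known enzymes. A tra mutation affects every organ, while the transgene returned tra to 1 midgut cell population in adults. The labels used here name neither the tra alleles nor the transgenes, if any, of the control and mutant flies.

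Gene counts per library ranged from 84839470 to 108455374. tra (FBgn0003741, chromosome arm 3L), which checks the labels, had 821, 650 and 742 counts in control, 756, 472 and 294 in rescue, and 1, 2 and 1 in the mutant. Transgene and endogenous transcripts are counted together, and l(3)73Ah overlaps tra on the opposite strand. Control replicate 3 lay at -64.2 on the first principal component, away from replicates 1 and 2 of its group (-34.6 and -34.5), and the mutant (18.8 to 27.0) and rescue (19.0 to 25.6) libraries overlapped there, while the second component separated them (-30.6 to -16.7 and 9.55 to 33.4). The summed levels of the markers fixed for 11 cell types overlapped between the 6 tra-positive and the 3 mutant libraries in all 11, but not in each single group. Neuron markers summed to 18.9 to 21.0 CPM in control, 22.2 to 27.3 in the mutant and 27.6 to 32.6 in rescue. Visceral muscle markers summed to 1451 to 1812 CPM in control, 882 to 1135 in the mutant and 940 to 1419 in rescue, and enteroendocrine markers to 421 to 517, 529 to 566 and 555 to 685. Their part in the results was not tested. Enterocyte markers summed to 772 to 963 CPM (counts per 1000000 after TMM scaling) in control, 866 to 931 in the mutant and 825 to 881 in rescue, and ovary markers to at most 0.402 CPM in any library. None of the 93 genes was among these markers.

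More genes were lower than higher in midguts with progenitor tra. Of the 93 genes, 21 were higher and 72 lower than in the mutant, which is 0.208% and 0.714% of all genes tested. Within the same fit, 15 of them passed in control against mutant and in rescue against mutant alike, 67 passed in control against mutant only, 10 in rescue against mutant only and 1 in neither. The same comparisons called 6.67% and 0.466% of all tested genes, and they share the mutant libraries, so they are not independent of each other. The number passing in both was 24 without control replicate 3, 8 and 9 without mutant replicates 1 and 3, and 9 and 8 without rescue replicates 2 and 3. Fewer cells of a type and less RNA per cell cannot be told apart in these bulk libraries. The numbers depended on the method and on single libraries. DESeq2 in place of edgeR kept 169 higher and 196 lower genes. Without mutant replicate 1, 2 or 3, 6, 8 and 8 genes were higher and 22, 32 and 38 lower. Leaving out control replicate 1 or 3 gave 33 and 40 higher genes. Leaving out rescue replicate 2 gave 12 higher and 47 lower genes, and leaving out rescue replicate 3 gave 40 lower genes. With the 6 tra-positive libraries fitted as a single group, so that differences between control and rescue count as spread, 2 were higher and 14 lower, all of them among the 93.

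In the values by library, the 6 tra-positive libraries did not overlap the 3 mutant libraries in 57 of the 93 genes, 14 higher and 43 lower. Over all tested genes this held for 3.17%, with 135 genes (1.34%) above and 185 (1.83%) below the mutant libraries; with library totals in place of TMM these were 144 and 140. The median log2 fold change of the 21 higher genes was 2.17 in control against mutant and 0.78 in rescue against mutant. That of the 72 lower genes was -2.04 and -0.73. Over all tested genes the medians were 0.03 and 0.00 (0.0304 and -0.0026). The 93 genes were selected on these same libraries, so their larger medians and more frequent separation were fixed in advance and are no separate evidence. The genes nearest the threshold were hig and vis on the inside (adjusted p 0.0497 and 0.0462) and NimB2 and CG31809 on the outside (0.0507 and 0.0518).

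**Figure D1:**
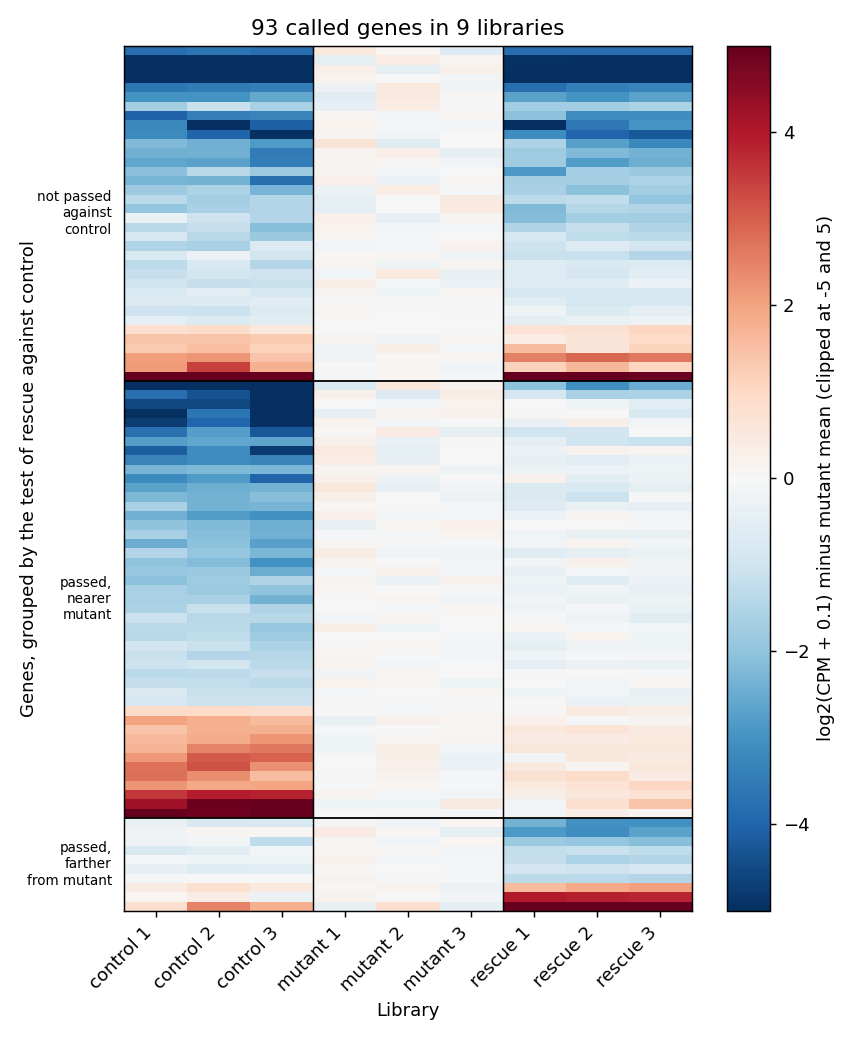
Levels of the 93 genes (rows) in the 9 libraries (columns), as log2(CPM + 0.1) minus the mean of the mutant libraries, with blue lower and red higher than the mutant and colours clipped at -5 and 5. Rows are grouped by the test of rescue against control: 36 genes did not pass it, 47 passed it with rescue nearer the mutant and 10 with rescue farther from the mutant.

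The 2 tra-positive groups differed from each other in most of these genes. Rescue against control, tested in the same fit, passed for 57 of the 93 genes, against 9.44% of all tested genes. Of these 57, 47 had the rescue nearer the mutant than control and 10 had it farther away. For the other 36 genes, 6 higher and 30 lower, the test did not pass, which does not show equal levels. Their median absolute log2 fold change from the mutant was 2.12 in control and 2.01 in rescue. In the 47 it was 2.35 in control and 0.30 in rescue. The classes were defined by the test of rescue against control and by these same distances, so the medians describe the classes and are no separate evidence.

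**Figure D2:**
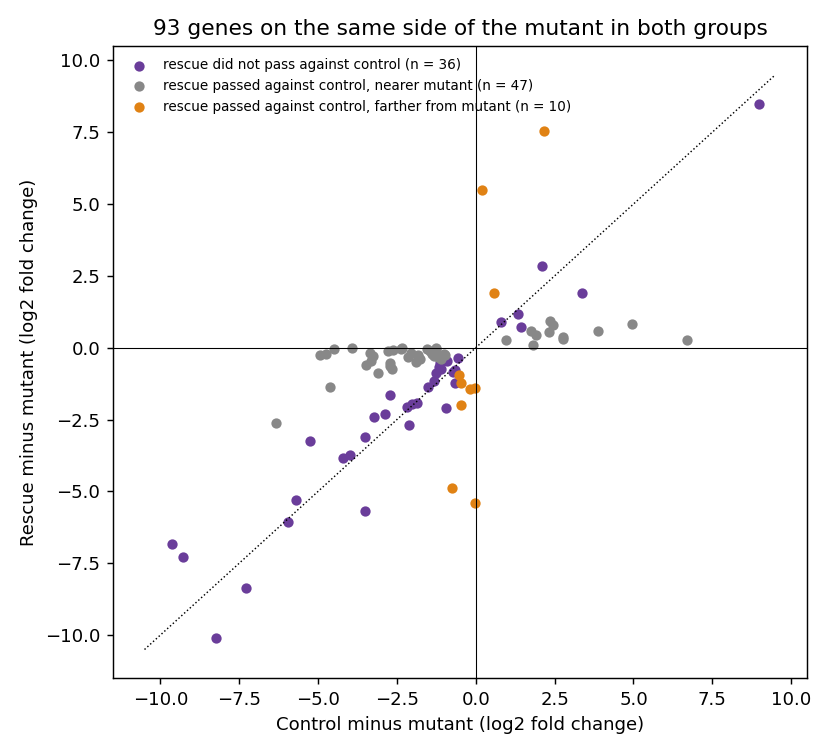
Log2 fold change of control over mutant (horizontal axis) and of rescue over mutant (vertical axis) for the 93 genes, coloured by the test of rescue against control; the dotted line marks equal values. The median distances from 0 are 2.12 and 2.01 in the class of 36 genes and 2.35 and 0.30 in the class of 47, and both axes use the same mutant libraries. The classes were defined from these same values.

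Several genes were transcribed in the mutant and close to undetected in every tra-positive library. elfless (FBgn0032660, 2L), which encodes a RING-finger protein of the ubiquitin ligase type, had 338, 598 and 545 counts in the mutant, 0, 2 and 0 in control and 7, 1 and 1 in rescue. After scaling, the ratio of summed counts was 158 for mutant over rescue (95% counting interval 83.0 to 346) and 751 (207 to 6206) for mutant over control, and the fit gave -8.29 ± 0.52 (log2 fold change of tra-positive over mutant ± SE, edgeR adjusted p = 9.29e-05). Klp54D (FBgn0263076, 2R), a kinesin-family motor protein gene, had 688, 592 and 589 counts in the mutant against 1, 2 and 9 in control and 0, 1 and 4 in rescue, a ratio of 359 (interval 154 to 1107) between mutant and rescue (edgeR adjusted p = 9.29e-05). None of the tra-positive libraries came near a mutant library in these genes. CG34215 (FBgn0085244, 2R) had 34.4, 20.7 and 34.4 CPM in the mutant, at most 0.0956 in control and 0.481, 0.180 and 0.0927 CPM in rescue (-8.22 ± 0.50, edgeR adjusted p = 9.29e-05). The lowest rescue library was just below the highest control library, and the test between those groups did not pass (2.80, edgeR adjusted p = 0.0703). elfless overlaps CG31740 and CG34215 overlaps CG15236, each on the opposite strand.

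The other genes of this kind had fewer counts. rdo (reduced ocelli, 2L), named for its effect on the simple eyes of the fly, had 100, 171 and 115 counts in the mutant, 1, 2 and 3 in control and 0, 2 and 3 in rescue. Mutant and rescue differed by a ratio of 74.1 (counting interval 31.5 to 230), and the fit gave -6.02 ± 0.50 (edgeR adjusted p = 0.00056). CG42692 (2L) had 43, 97 and 77 counts in the mutant against 0, 0 and 4 in control and 3, 0 and 2 in rescue (edgeR adjusted p = 0.00482). Spn47C, a gene of the serpin family of protease inhibitors, measured 1.55 ± 0.13 CPM in the mutant, 0.0385 ± 0.0337 in control and 0.159 ± 0.123 in rescue (SD, n = 3 each; -4.25 ± 0.54, edgeR adjusted p = 0.00564; 0.129 with 1 mean per tra status). CR43688, a non-coding RNA gene, had 15, 32 and 25 counts in the mutant, 6 over the control libraries and 1 over the rescue libraries, a ratio of mutant to rescue of 69.2 (counting interval 12.0 to 2769). Its call was lost without any 1 of the mutant or of the rescue libraries (edgeR adjusted p up to 0.177 over the alternatives). Rescue against mutant alone did not pass for Spn47C or CR43688 (edgeR adjusted p 0.0970 and 0.0866).

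**Figure D3:**
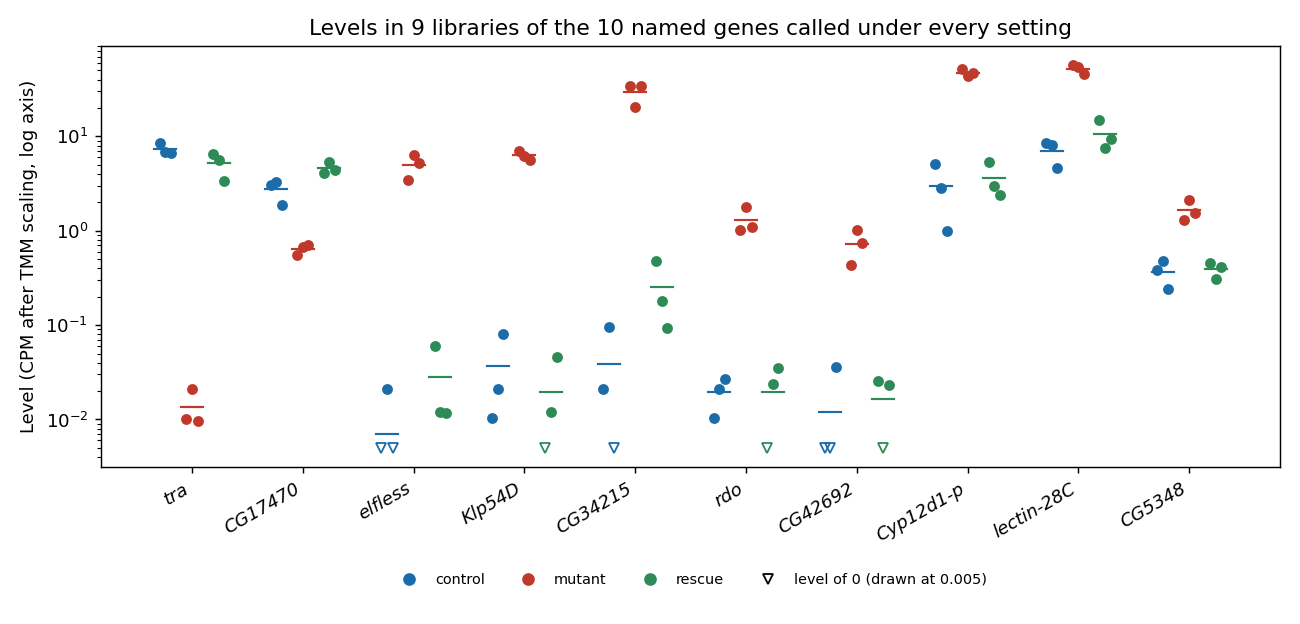
Levels (CPM after TMM scaling, logarithmic axis) in each library of the 10 named genes that passed the threshold in every alternative fit that tested them; horizontal lines are group means, n = 3, and open triangles are levels of 0. In each gene all control and rescue libraries lie on one side of all mutant libraries, above it for tra and CG17470 and below it for the other 8.

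A few genes for the handling of foreign compounds were lower where progenitors had tra. Of 58 tested members of the detoxification list, 0 were higher and 5 lower by the rule, beside 0.208% and 0.714% of all tested genes, and 53 were not called. The 5 were Cyp12d1-p, Cyp9b2, Cyp6a13 and GstE2 on arm 2R and Cyp28a5 on 2L. On these arms 1.56% and 0.8% of the tested genes were lower by the rule. The part of their chromosome in these calls was not tested. In 11 members the tra-positive libraries all lay below the mutant ones and in 0 all above, beside 1.83% and 1.34% of all tested genes. Taken singly, control against mutant had 1 member higher and 9 lower, and rescue against mutant 2 higher and 3 lower. Members with higher fitted values that did not pass included Cyp6w1 (1.61, edgeR adjusted p = 0.454) and GstD10 (0.90, edgeR adjusted p = 0.484). The list median was -0.25 against 0.02 over all genes; it was -0.49 in control and -0.04 in rescue against the mutant. Cyp12d1-p (FBgn0050489, 2R), a mitochondrial P450 associated with insecticide resistance, had 51.5, 43.7 and 47.5 CPM in the mutant, 5.12, 2.83 and 0.990 in control and 5.37, 2.97 and 2.40 in rescue. Each mutant library was above every other library by a wide margin (-3.86 ± 0.40, edgeR adjusted p = 0.00157), and rescue against control gave 0.28 ± 0.48 (edgeR adjusted p = 0.75). Its neighbouring near-identical copy Cyp12d1-d had 148, 55 and 98 counts in the mutant, 26 over control and 36 over rescue (-3.31 ± 0.62, edgeR adjusted p = 0.0381). The assignment of reads between these copies is uncertain. The Cyp12d1-d call was lost without any 1 control or mutant library, without rescue replicate 2 and with 1 mean per tra status (edgeR adjusted p up to 0.193). Its rescue against mutant comparison did not pass on its own (edgeR adjusted p = 0.286).

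Smaller differences were seen in strongly expressed P450 genes of arm 2R. Cyp9b2 measured 1070, 1120 and 1074 CPM in the mutant, 679, 678 and 727 in control and 709, 585 and 612 in rescue (-0.71 ± 0.11, edgeR adjusted p = 0.0166). Cyp9b2 did not pass after removal of any 1 mutant library or of rescue replicate 2 or 3 (edgeR adjusted p 0.0637 to 0.102), nor with 1 mean per tra status (0.1105). Cyp6a13 measured 59.1 ± 2.47 CPM in the mutant, 41.1 ± 3.03 in control and 30.5 ± 2.08 in rescue (SD, n = 3 each; -0.74 ± 0.08, edgeR adjusted p = 0.00293). Here rescue against control also passed (-0.43 ± 0.10, edgeR adjusted p = 0.0289), and with 1 mean per tra status Cyp6a13 did not pass (0.177). Cyp4p2, which had been listed among sex-biased transcripts, measured 187 ± 12.0, 74.2 ± 24.9 and 84.4 ± 14.6 CPM in mutant, control and rescue (-1.24 ± 0.19, edgeR adjusted p = 0.0138), and it overlaps hig, a synaptic protein gene that was also lower (-1.54, edgeR adjusted p = 0.0497). GstE2, a glutathione transferase gene, had 1.39, 1.89 and 2.73 CPM in the mutant, 0.548 ± 0.103 in control and 0.535 ± 0.167 in rescue (-1.89 ± 0.28, edgeR adjusted p = 0.0138). Cyp4p2 did not pass without any 1 mutant library (edgeR adjusted p 0.0585 to 0.0789), nor GstE2 without mutant replicate 2 or 3 (0.0603 and 0.0917). Rescue against mutant alone did not pass for Cyp4p2 or GstE2 (edgeR adjusted p 0.0889 and 0.0632). The fifth called member of the detoxification list was Cyp28a5, mentioned after its values were seen. It measured 117 ± 21.5, 34.0 ± 6.68 and 89.2 ± 10.98 CPM in mutant, control and rescue, and rescue lay near the mutant. Cyp12d1-d and Cyp4p2 are not on that list. Counted over all 76 tested genes with a P450 symbol, a grouping also made after the values were seen, 7 were lower by the rule and 0 higher, beside the same 0.714% and 0.208%. Of 34 glutathione transferase genes counted in this way, 1 was lower and 0 higher. Of 31 UDP-glycosyltransferase genes, 0 were lower and 1 (Ugt37E1) higher.

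Lower genes with other roles included those of a lectin and a cuticle protein. lectin-28C (FBgn0040099, 2L), of the sugar-binding C-type lectins, had 57.01, 54.1 and 46.0 CPM in the mutant, 8.43, 8.17 and 4.60 in control and 15.0, 7.46 and 9.45 in rescue. All 6 tra-positive libraries were at 15.0 CPM or less and all 3 mutant libraries at 46.0 or more (-2.59 ± 0.23, edgeR adjusted p = 0.00087). TwdlE, a cuticle protein gene of the Tweedle family that overlaps it on the other strand, measured 1.87 ± 0.53 CPM in the mutant, 0.199 ± 0.111 in control and 0.348 ± 0.094 in rescue (-2.83 ± 0.37, edgeR adjusted p = 0.00716), with an edgeR adjusted p of 0.0515 without mutant replicate 1. No source used here gives the strand setting of the authors' counting, and reads of such pairs may be shared. CG5348 (2R), which overlaps the kinesin gene unc-104, measured 1.66 ± 0.42 CPM in the mutant against 0.368 ± 0.120 and 0.395 ± 0.074 in control and rescue (-2.12 ± 0.27, edgeR adjusted p = 0.00625). CG4734 was the most strongly expressed gene called in both single comparisons after Cyp9b2 by CPM, without account of length, with 723, 573 and 613 CPM in the mutant, 245, 285 and 145 in control and 226, 281 and 226 in rescue. It passed at an edgeR adjusted p of 0.00795 and at 0.0589 without mutant replicate 1. CG30371 (24.4 ± 2.67, 1.31 ± 1.23 and 1.74 ± 1.41 CPM in mutant, control and rescue) and CG15128 (0.936 ± 0.102, 0.213 ± 0.077 and 0.148 ± 0.092 CPM) were also lower. With any 1 mutant library left out neither passed (edgeR adjusted p 0.0872 to 0.167); CG30371 did not pass without control replicate 3 or any 1 rescue library either (0.0533 to 0.11), nor CG15128 without rescue replicate 3 (0.0548). With 1 mean per tra status CG30371 (0.205) and CG15128 (0.129) did not pass, nor did CG30371 with the replicate block (0.0652). Rescue against mutant alone did not pass for TwdlE, CG30371 or CG15128 (edgeR adjusted p 0.0793, 0.327 and 0.0889).

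Of the 21 higher genes, 6 did not pass in rescue against control: tra, CG17470, CG8008, Sans, Idgf1 and CG4306. Apart from tra, the single gene that passed in both single comparisons was CG17470 (FBgn0032869, 2L), with 3.07, 3.33 and 1.86 CPM in control, 4.10, 5.32 and 4.42 in rescue and 0.550, 0.672 and 0.698 in the mutant. Every tra-positive library was above every mutant library (2.48 ± 0.24, edgeR adjusted p = 0.00129), and rescue against control did not pass (0.75 ± 0.24, edgeR adjusted p = 0.0824). CG8008 measured 6.45 ± 0.82 CPM in control, 5.78 ± 1.90 in rescue and 2.54 ± 0.49 in the mutant (1.26 ± 0.23, edgeR adjusted p = 0.0303). Sans, the fly relative of an Usher syndrome scaffold protein, measured 3.55 ± 0.48, 3.78 ± 0.52 and 2.03 ± 0.02 CPM in the same order (0.85 ± 0.16, edgeR adjusted p = 0.0381). Idgf1, which encodes a secreted chitinase-like growth factor, measured 1.24 ± 0.85, 0.441 ± 0.127 and 0.118 ± 0.021 CPM (2.63 ± 0.48, edgeR adjusted p = 0.0319), and CG4306 3.60 ± 0.19, 2.17 ± 0.45 and 1.33 ± 0.16 CPM (edgeR adjusted p = 0.0249). For CG8008, Sans, Idgf1 and CG4306 rescue against mutant alone did not pass (edgeR adjusted p 0.129, 0.0923, 0.370 and 0.460). The calls of CG8008, Sans, Idgf1 and CG4306 were each lost when any 1 mutant library was left out (edgeR adjusted p 0.0697 to 0.176), and in part without control or rescue libraries (0.0514 to 0.0926). With 1 mean per tra status none of these 4 passed (0.129 to 0.477), and with the replicate number as a block CG8008 (0.0583), Sans (0.0756) and CG4306 (0.0517) did not.

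In a second set of higher genes rescue passed against control and lay nearer the mutant, and rescue against mutant alone did not pass here either. bnl (branchless, 3R), the fibroblast growth factor ligand that guides tracheal branching, measured 24.5 ± 5.31 CPM in control, 6.48 ± 0.79 in the mutant and 8.80 ± 0.43 in rescue (1.18 ± 0.15, edgeR adjusted p = 0.00482). All 3 rescue libraries (8.60, 8.51 and 9.30 CPM) were above all 3 mutant ones (5.57, 6.85 and 7.01), while rescue against mutant alone did not pass (0.44, edgeR adjusted p = 0.72) and rescue against control did (-1.48 ± 0.16, edgeR adjusted p = 0.000932). CG4991 (X) had 16.9, 22.1 and 21.0 CPM in control, 1.67, 2.05 and 2.32 in rescue and 1.54, 1.30 and 1.23 in the mutant, with no overlap between groups (2.22 ± 0.16, edgeR adjusted p = 0.000239). For CG4991 rescue against mutant gave 0.57 (edgeR adjusted p = 0.498). Group means followed the same order, with rescue against mutant not passing (edgeR adjusted p 0.456 to 0.947), for pot, a zona pellucida-domain protein of the apical matrix (4.06, 1.83 and 1.21 CPM in control, rescue and mutant), for CG31259 (68.8, 20.0 and 13.8 CPM), for CG33483 (1.62, 0.603 and 0.316 CPM) and for the UDP-glycosyltransferase gene Ugt37E1 (3.49, 1.10 and 0.639 CPM). Summed tracheal markers were 13.8 to 19.1 CPM in control, 12.5 to 15.3 in the mutant and 11.4 to 12.6 in rescue, and their part in the bnl result was not tested. In CG31041 and Jon99Fi, a digestive protease gene, rescue and mutant libraries overlapped (edgeR adjusted p = 0.999 for each). CG31041 had 139, 225 and 338 CPM in control, 6.63, 12.9 and 19.9 in rescue and 6.27, 6.24 and 9.99 in the mutant. Jon99Fi has a near-identical copy, Jon99Fii, so its value is uncertain. With 1 mean per tra status none of these 8 genes passed (edgeR adjusted p 0.55 to 0.886; 0.749 for bnl and CG4991). bnl and CG4991 kept their calls when single libraries were left out; pot, CG33483, Ugt37E1 and Jon99Fi did not pass without any 1 mutant library, CG31259 without mutant replicate 1 or 3, and CG31041 without mutant replicate 1 or 2 (edgeR adjusted p 0.0552 to 0.169). Ugt37E1 was also lost without control replicate 2 or any 1 rescue library (0.0521 to 0.0796) and Jon99Fi without rescue replicate 2 or 3 (0.057 and 0.056).

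Some lower genes named as members of their lists also had the rescue near the mutant. LysD, a digestive lysozyme gene, had 128, 215 and 108 CPM in control against 3801, 3074 and 3343 in the mutant and 2678, 4163 and 3102 in rescue. Rescue and mutant overlapped (-0.04, edgeR adjusted p = 0.999), and the mean of both tra-positive groups passed against the mutant (edgeR adjusted p = 0.00144). LysD gave -0.98 with 1 mean per tra status (edgeR adjusted p = 0.894). LysD and Amy-d have near-identical copies, so their values are uncertain. LysC, of the same list as LysD and mentioned after its values were seen, passed the test (-2.36, edgeR adjusted p = 0.00314). It failed only the direction rule, with -4.73 in control and 0.02 in rescue against the mutant, so the rule separated LysC from LysD on rescue values close to no difference. The amylase gene Amy-d (-0.03 in rescue against mutant), the lipase gene Lip3 (-0.01), the copper transporter gene Ctr1B (-0.24) and Cadps (-0.28), which acts in vesicle release, were called with the rescue near the mutant as well, and each passed in rescue against control. With 1 mean per tra status they gave -0.77, -0.92, -0.83 and -0.70 (edgeR adjusted p 0.891 to 0.894), and with library totals Cadps did not pass (0.0617). For Cadps, summed enteroendocrine markers did not overlap between control and mutant libraries either, but single markers went both ways. Tk (99.0 and 175 CPM in control and mutant), AstC (145 and 180), AstA, pros and Dh31 had lower means in control. Orcokinin (108 and 70.6 CPM) and NPF (54.7 and 44.4) had higher ones. The part of these cells in the Cadps result was not tested. Without single mutant or rescue libraries Amy-d, Lip3, Ctr1B and Cadps were lost (Amy-d and Cadps without any 1 mutant library, Lip3 without mutant replicate 1 or 3, Ctr1B without 1 or 2; edgeR adjusted p 0.0697 to 0.125). Amy-d was also lost without rescue replicate 3 (0.0521), Lip3 without any 1 rescue library (0.0518 to 0.059), and Cadps without control replicate 2 (0.0501) or rescue replicate 2 or 3 (0.0705 and 0.0586). Arr1, a photoreceptor arrestin gene (2L), lay between: 8.23, 19.1 and 14.8 CPM in the mutant, 3.16, 1.49 and 2.27 in rescue and 0.250, 0.244 and 0.0357 in control. Its 3 groups did not overlap, and rescue differed from control (3.73 ± 0.58, edgeR adjusted p = 0.00492) while its difference from the mutant did not pass (-2.60 ± 0.50, edgeR adjusted p = 0.0754). Arr1 did not pass with 1 mean per tra status (edgeR adjusted p = 0.543).

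The 10 genes that passed in rescue against control with the rescue farther from the mutant included immune and sugar transport genes. DptA, the gene of an antibacterial peptide (diptericin), had 65.0, 10.4 and 27.5 CPM in rescue, 0.354, 1.34 and 0.794 in control and 0.102, 0.367 and 0.0861 in the mutant. One control value lay below the highest mutant value, control against mutant did not pass (2.17 ± 0.84, edgeR adjusted p = 0.149), and the call for the mean of both groups (4.86 ± 0.80, edgeR adjusted p = 0.0191) was lost when any 1 mutant library was left out (edgeR adjusted p 0.0585 to 0.126). Summed fat body markers were 3.23 to 15.0 CPM in control, 4.29 to 5.32 in the mutant and 5.55 to 8.82 in rescue, and their part in the DptA result was not tested. CG12934 had 5.65, 7.01 and 7.93 CPM in rescue, 2.45, 3.26 and 2.58 in control and 1.99, 2.11 and 1.46 in the mutant. sut3, of the sugar transporter family, had 2, 0 and 3 counts in rescue against 63, 79 and 91 in control and 103, 75 and 54 in the mutant. For sut3 the control value was level with the mutant (-0.03 ± 0.43), and rescue against mutant passed (-5.39 ± 0.61, edgeR adjusted p = 0.00417). Without any 1 mutant library CG12934 did not pass (edgeR adjusted p 0.0566 to 0.0917), nor did sut3 without mutant replicate 1 or 2 or rescue replicate 1 (0.052 to 0.0891). DptA, CG12934 and sut3 did not pass with 1 mean per tra status (0.682, 0.701 and 0.896), where sut3 gave -0.99.

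The called genes lay unevenly on the chromosomes. Chromosome 2 held 37.1% of the tested genes and 53 of the 93 (57%), and 45 of the 72 lower genes (62.5%) but 8 of the 21 higher ones (38.1%). Arm 2R alone held 31 of the lower genes, 1.56% of its tested genes, against 0.8% on 2L, 0.71% on 3R, 0.192% on X and 0.158% on 3L. The share on chromosome 2 was 83.3% (30 of 36) in the genes in which rescue did not pass against control. Among genes that passed in that test, it was 100% (10 of 10) with the rescue farther from the mutant and 27.7% (13 of 47) with it nearer. Of these 47, 22 lay on 3R, which held 23.8% of the tested genes. In the single comparisons, 41 of 47 genes called in rescue against mutant were on chromosome 2 (87.2%), with 0 on 3R, while 266 of 673 called in control against mutant were (39.5%). Some called genes were neighbours. elfless, rdo and Arr1 are consecutive coding genes on 2L in the Ensembl release 115 annotation and CG31741, also lower, is 2 genes further on. lectin-28C stands beside TwdlE on that arm, and CG34215 beside CG15236 on 2R. CG14535, also beside lectin-28C, went the other way (2.85). On 3R, Coq2 and Ctr1B, CG18547 and CG3397, danr and dan, and CG6403 and IntS12 lay within 5 coding genes of each other, all lower. How often tested genes are neighbours was not counted. No position is given because the counts and that annotation use different builds. The sources used here do not state on which chromosome each transgene lies or whether the groups share a second chromosome, so a shared chromosome and progenitor tra cannot be told apart in this design.

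**Figure D4:**
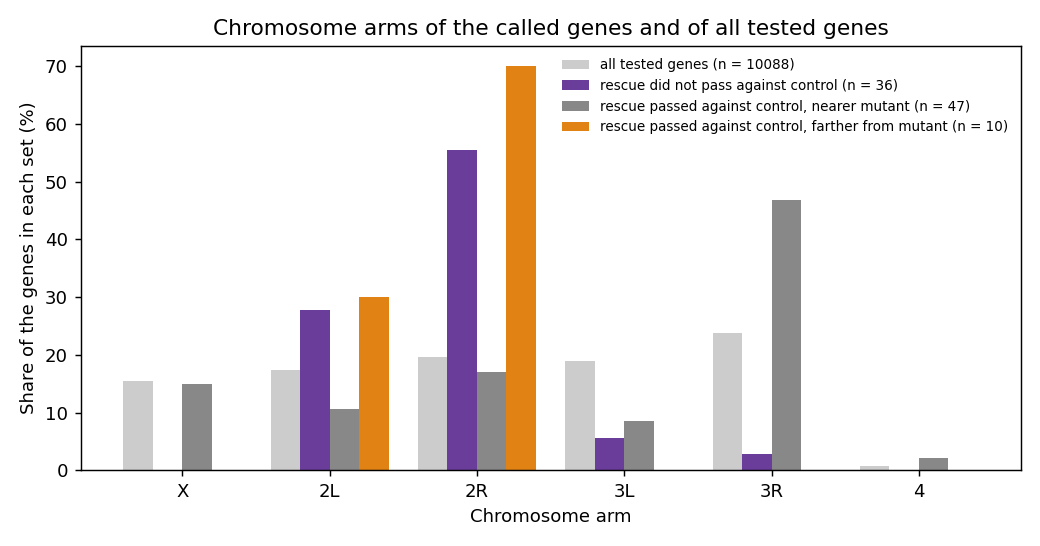
Share of genes on each chromosome arm (bars, percent of the genes in each set) for all 10088 tested genes and for the 93 called genes in the 3 classes of rescue against control. Arm 2R holds 55.6% of the 36 genes that did not pass against control and 17.0% of the 47 with the rescue nearer the mutant, while 3R holds 2.78% and 46.8%. Of all tested genes, 2R holds 19.7% and 3R 23.8%.

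Of 24 gene lists, 15 had no member among the 93 genes. Over all tested genes 0.922% were kept, 0.208% higher and 0.714% lower. At that share lists of these sizes hold few kept genes or none, so empty lists and single called members are not results about the lists. SMC2, a condensin subunit gene of the cell cycle list mentioned after its values were seen, passed the test but not the direction rule: it averaged 206 CPM in control, 5.01 in the mutant and 4.65 in rescue (2.63, edgeR adjusted p = 0.00234). For the progenitor list (14 tested) the median log2 fold change was 0.03, for cell cycle and mitosis (46 tested) 0.21, for the EGFR pathway (22) 0.07, for the Notch pathway (12) 0.03, for JAK-STAT (8) 0.04 and for insulin and TOR signalling (12) -0.03, against 0.02 over all genes. The cell cycle median was 0.56 in control and -0.12 in rescue against the mutant. Enterocyte and regional identity genes (17), RNA splicing regulators (17) and heat shock genes (14) had medians of 0.05, 0.04 and 0.14, and fat body (10), ovary (4), trachea and haemocytes (9), visceral muscle (14), neurons (8) and Malpighian tubule and hindgut (8) had medians of 1.33, 0.46, 0.38, 0.26, 0.01 and 0.00 (0.0006). Among the lists with a member in the 93, sex determination had tra alone of 11 tested genes. The others were sex-biased transcripts (0 higher and 1 lower of 8, Cyp4p2), proteases (1 and 0 of 30, Jon99Fi), carbohydrate digestion (0 and 1 of 21, Amy-d), lipid genes (0 and 1 of 24, Lip3), immune effectors (1 and 1 of 35, DptA and LysD), transporters (0 and 2 of 27, sut3 and Ctr1B) and enteroendocrine genes (0 and 1 of 22, Cadps). Their medians, in that order from sex determination on, were -0.01, 1.34, 0.23, -0.45, 0.00 (0.0013), 1.02, -0.01 and -0.08.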

How the data were processed

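RNA sequencing of midguts gave 9 libraries (poly(A) stranded kit, 500 ng of RNA, reads of 100 bases from both ends, per the labels' protocols). The authors deposited raw counts per gene, 1 table per library; the build dm3 and the tools HTSeq and TopHat2 2.0.11 are listed in the submitters' processing notes, and no version or strand setting of HTSeq is given in the sources used here. Of 15682 identifiers, 15002 matched a symbol in the reference table and 680 did not; 3 of the called genes, 2 of them called in both single comparisons, had no symbol and are counted but not named. The 5 lines that name no gene were left out (alignments to more than 1 place were 14.6% to 22.9% of alignments, those outside genes 1.30% to 1.83%, ambiguous ones 0.822% to 1.09%).

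Groups came from the sample titles. In R 4.3.3, edgeR 4.0.16 filtered genes (filterByExpr, 10 counts, 15 in total), scaled by TMM and fitted group means by quasi-likelihood; the contrast was the mean of control and rescue minus mutant, adjusted by Benjamini-Hochberg over 10088 genes. SE were derived from the F statistic. Ratios for groups of up to 10 counts are of summed counts, with 95% intervals that cover counting error only. The limit that a count of 0 sets is 3 counts (0.0354 CPM before TMM scaling in the shallowest library). The script was tested on simulated data. Alternatives were other scalings and filters, DESeq2 1.42.0, a block for the replicate number, 1 mean per tra status, stricter direction rules and leaving out each library.

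Named genes were tra, the 15 higher and 15 lower genes with the largest smaller fold change of the 2 groups, all genes called in both single comparisons and up to 4 called members of each of 24 lists. The members, lists and tests were chosen with earlier results of these data known. The labels do not say whether replicates were separate cultures, so p-values cover only how far these samples vary, possibly for technical reasons. Replicate libraries differed well beyond counting noise (chi-square per degree of freedom 121.6 to 1002), so none was a copy. Of the 93 genes, 30 overlap an opposite-strand gene and 5 a same-strand gene.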

Additional observations from a re-analysis of the deposited data

Results flagged for a closer look

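The results below were singled out because the difference from the mutant was not the same in the 2 tra-positive groups, by the edgeR test of rescue against control (log2 fold change of rescue over control, edgeR adjusted p). Those in which the rescue stood nearer the mutant and below control were CG4991 (-3.31, 2.86e-05), CG31041 (-4.15, 0.000973), bnl (-1.48, 0.000932), Jon99Fi (-2.45, 0.00128), CG31259 (-1.78, 0.00229), pot (-1.15, 0.00656), CG33483 (-1.42, 0.0114) and Ugt37E1 (-1.66, 0.0134). Above control and nearer the mutant were LysD (4.46, 8.66e-05), Amy-d (2.35, 0.000573), Lip3 (3.92, 0.000973), Ctr1B (1.60, 0.00137), Arr1 (3.73, 0.00492) and Cadps (1.03, 0.00572). In 4 genes the rescue was farther from the mutant than control: DptA (5.37, 0.00356), CG12934 (1.31, 0.0061), sut3 (-5.36, 0.0011) and Cyp6a13 (-0.43, 0.0289).

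Some count lines that name no gene also stood above their level in every control library. Alignments outside genes were 1.71% ± 0.12 of all in rescue against 1.40% ± 0.09 in control (SD, n = 3 each). Ambiguous alignments were 1.01% ± 0.04 in the mutant and 1.07% ± 0.02 in rescue against 0.865% ± 0.039 in control, and alignments to more than 1 place 18.8% ± 0.62 in rescue against 15.3% ± 1.03 in control. Their part in the gene results was not tested.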

How the results depend on the processing

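All 42 named genes kept their direction under every alternative that tested them, and 10 (tra, CG17470, elfless, Klp54D, CG34215, rdo, CG42692, Cyp12d1-p, lectin-28C and CG5348) also stayed past the threshold in each. Over 707 values of named genes, 565 stayed past the threshold and 142 did not, 28 of these with 1 mean per tra status and 25, 22 and 21 without mutant replicate 1, 2 and 3. DESeq2 kept 169 higher and 196 lower genes, which included all 93, and 42 called in both single comparisons. One mean per tra status gave 2 higher and 14 lower, a direction rule of at least 0.5 in both groups 14 higher and 37 lower, and the rule that both single comparisons pass 2 and 13; the last 2 rules are stricter by construction, and for the others the cause was not tested. Leaving out 1 library gave 6 to 40 higher, 22 to 96 lower and 8 to 24 called in both single comparisons. Over 20 settings, the main one included, 49.5% to 81.2% of the kept genes lay on chromosome 2.

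Same-numbered libraries correlated in their deviations at 0.204, 0.176 and 0.17 for control and mutant, 0.0237, 0.2505 and 0.0304 for control and rescue, and 0.0964, 0.0726 and -0.237 for mutant and rescue. Unlike-numbered libraries gave -0.163 to -0.00355, -0.213 to 0.167 and -0.215 to 0.14 in the same order. Same numbers thus stood above unlike ones throughout for control and mutant only, and the numbers were not taken to pair all 3 groups. Deviations from a group mean sum to 0 within a group, so a positive value for same numbers pulls the unlike ones down. The values are therefore not separate evidence on pairing. With the replicate block 28 genes were higher and 73 lower, of which 16 and 60 were among the 93, and 14 passed in both single comparisons; CG8008, Sans, CG4306 and CG30371 lost their calls. A count of 0 limits what these depths show for the nearly silent genes.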

Other observations

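The largest fitted differences between tra-positive and mutant midguts were not called, and were chosen here after their values were seen. CG34212, CG16826, whe and CG33109 had log2 fold changes of 12.42, 11.77, 11.28 and 10.67 with edgeR adjusted p of 0.37, 0.25, 0.266 and 0.294. CG16826 had 282 and 231 CPM in control replicates 1 and 3 and 367 in rescue replicate 3, and between 0.0106 and 0.396 CPM in the other 6 libraries. whe had 49.9, 49.4 and 121 CPM in the same 3 libraries and at most 0.0601 in the others. CG34212 (12.5, 9.04 and 20.4 CPM) and CG33109 (11.3, 9.69 and 24.3 CPM) were high in these 3 libraries too, and at or under 0.012 CPM elsewhere. The 4 genes thus marked the same 3 tra-positive libraries and neither control replicate 2 nor rescue replicates 1 and 2.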
